A study of Mus musculus with 36 samples.

Results

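Conventional mice, which carry an ordinary complex gut microbiota, were compared with germfree mice, which carry no microbes, in 18 of the 36 ileal mucosa samples of the series. The 18 were chosen by their labels for colonisation: 9 samples of group type conventional and 9 germfree, the study's control. The other 18 samples came from mice mono-associated with Escherichia coli CEC or Nissle, 9 each, and enter only where their values are set beside these. Strain, genotype, age and sex of the mice were not given in the sources used here. The design text says that RNA from the mice was pooled, while each title has its own number, so it could not be settled if a sample is 1 mouse or a pool. The p-values therefore speak only of how far these samples vary, and part of that variation may be technical.

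The ileum is the last part of the small intestine, where a single layer of epithelial cells separates a dense bacterial community from the tissue. Contact with microbes and their products acts on this layer through pattern recognition receptors and through cytokines from immune cells beneath it. Well known outputs are secreted antimicrobial lectins, oxidases that release hydrogen peroxide or superoxide at the surface, and transport of IgA into the lumen.

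A panel of 224 TaqMan assays was read as raw Ct, the PCR cycle at which a well's fluorescence passes a set limit, and more template gives a lower Ct. The log2 relative level used here is the sample's mean Ct over the 206 assays measured in all 18 samples, less the Ct of the assay. It compares samples for 1 assay, not assays with each other. The deposited table gives catalogue IDs and no gene names. Names for 97 assays were recalled from general knowledge of the manufacturer's catalogue and were not checked against it, and 127 assays have no name here. Every gene below is the gene so assigned, and the values belong to the assay whatever its name. Each sample gave a Ct for 214 to 222 assays, and 109 of 4032 wells (2.7%) did not amplify. The mean Ct was 21.4 ± 0.153 (SD, n = 9) in germfree and 21.2 ± 0.0902 (SD, n = 9) in conventional samples, a difference of -0.16 cycles (exact permutation test, two-sided, p = 0.0165) that the scaling removes. Epcam, an epithelial adhesion protein, differed by 0.07 log2 units with an SE of 0.12 (limma, adjusted p = 0.705), and Krt20, a keratin of mature epithelium, by 0.01 ± 0.16 (adjusted p = 0.966). None of the 7 ileal enterocyte markers listed for the check was among the named assays, so the labelled gut segment could not be checked. In bulk mucosa, fewer cells of a type and less RNA per cell cannot be told apart.

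Assays also shifted together by their place in the table, which was seen after the data were examined. In its order the table falls into 4 stretches of 56 assays, and the labels do not say what these are. After the group means were removed, the median correlation between assays of a stretch was 0.72, 0.07, 0.57 and 0.31 for stretches 1 to 4, and between stretches 1 and 3 it was -0.63. Assays of 1 stretch share its common shift, so these correlations are a description. Because each sample is scaled to 1 mean, a shift in 1 stretch is offset in the others. Negative correlations between stretches are therefore partly built in, and the 4 differences that follow are not independent. The mean level of a stretch differed between conventional and germfree samples by 0.16, 0.07, 0.00 and -0.22 log2 units, with exact permutation p-values of 0.447, 0.131, 0.986 and 0.0183. The last had an adjusted p of 0.0732 over the 4 stretches by the same exact permutation test. Fold changes were therefore also computed with each sample scaled to the mean Ct of each stretch. This takes the mean difference of a stretch out of every assay in it, 0.16 in stretch 1 and -0.22 in stretch 4. In stretch 1 the calls of a lower level went from 3 to 22. Cat, Ccl25, Ccna2, Ccne1, Cdk4, Cftr, Cldn3 and Cldn8, called lower only within stretches, lie there. Whether these differences are technical was not tested, so calls made only within stretches depend on this scaling. Where a gene discussed below differed in call, its value or adjusted p within stretches is given. Cftr, Insr and Mmp7 are not discussed below. They were called only within stretches, at -0.37, -0.29 and 0.27 (limma, adjusted p = 0.0423, 0.0168 and 0.0109). Differing calls of unnamed assays are not listed.

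**Figure D1:**
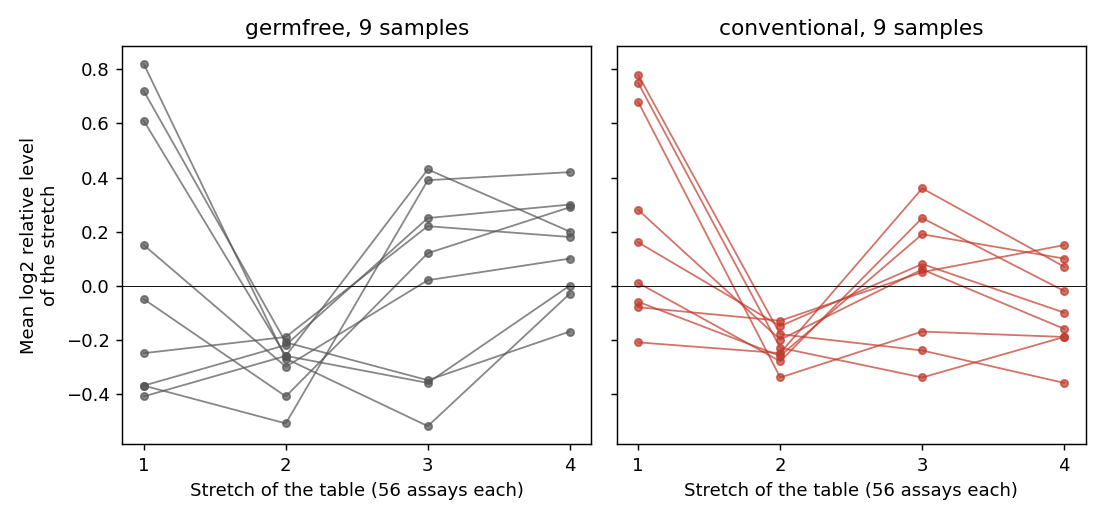
Mean log2 relative level of each stretch of the table (56 assays each, x axis) in each of the 9 germfree and 9 conventional samples (lines). In stretch 1 the samples run from -0.41 to 0.82 in germfree and from -0.21 to 0.78 in conventional, and in stretch 2 all samples lie between -0.51 and -0.13.

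Of 219 assays measured in at least 5 samples of both groups, 84 (38.4%) differed between conventional and germfree samples (limma, Benjamini-Hochberg adjusted p below 0.05). Conventional samples were higher for 36 assays (16.4%) and lower for 48 (21.9%). The rises were larger: their median was 0.89 log2 units, with 14 assays (6.39%) beyond a doubling, whereas the median of the falls was -0.57, with 9 assays (4.11%) beyond a halving in level. The median over all tested assays was -0.14. The 2 groups did not overlap for 17 assays (7.76%), 9 higher (4.11%) and 8 lower (3.65%) in conventional samples. The per-assay exact permutation test, two-sided, also called 84 assays (38.4%), 31 higher (14.2%) and 53 lower (24.2%). The fit on all 36 samples called 56 (25.6%), of which 26 were higher (11.9%) and 30 lower (13.7%).

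The split between rises and falls moved with the scaling. Raw Ct gave 40 higher and 23 lower, the 20 steadiest assays gave 41 and 24, and the 4 reference genes Actb, Gapdh, Gusb and Tbp gave 39 and 19. Raw Ct and the steadiest assays shifted the median log2 fold change by 0.1602 and 0.1519 from the main scaling. Scaled within stretches, the fit called 130 assays (59.4%), with 49 higher (22.4%) and 81 lower (37%), and 76 of the 84 kept call and direction. Under all 9 scalings run, 42 of the 84 assays were called in the same direction, 26 higher and 16 lower.

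**Figure D2:**
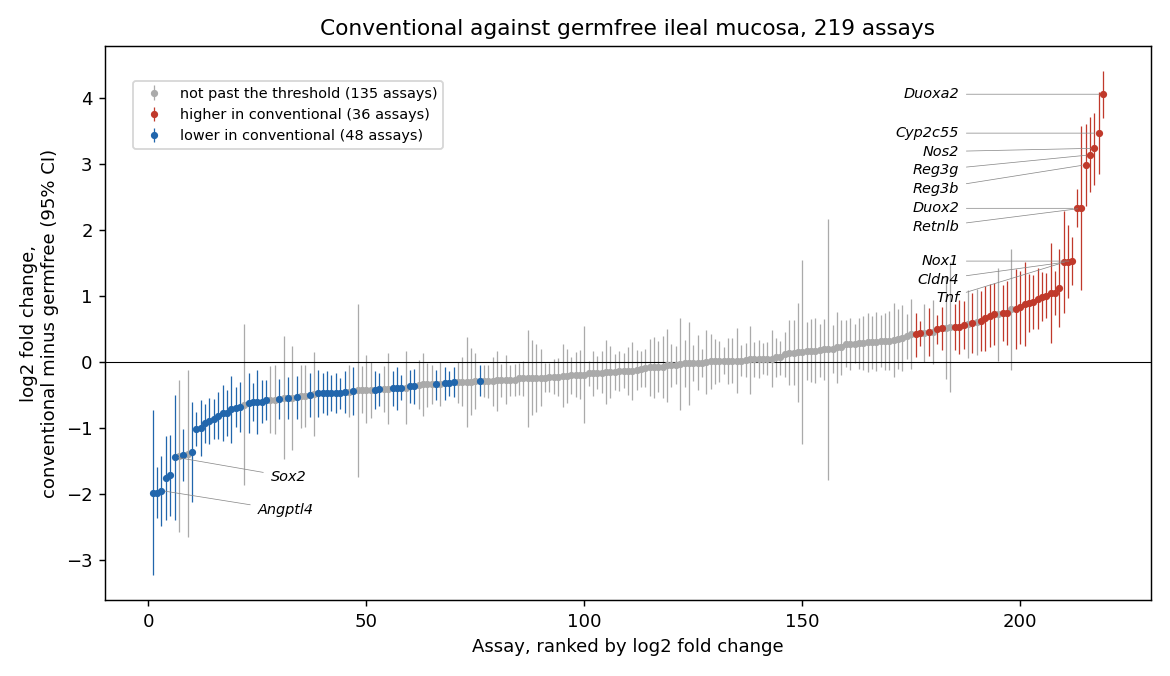
Log2 fold change of each of 219 assays, conventional minus germfree, ranked along the x axis, with 95% confidence intervals as bars. Colours mark assays called higher (36), lower (48) or not called. The rises reach 4.06 at Duoxa2 and the falls reach -1.98.

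**Figure D3:**
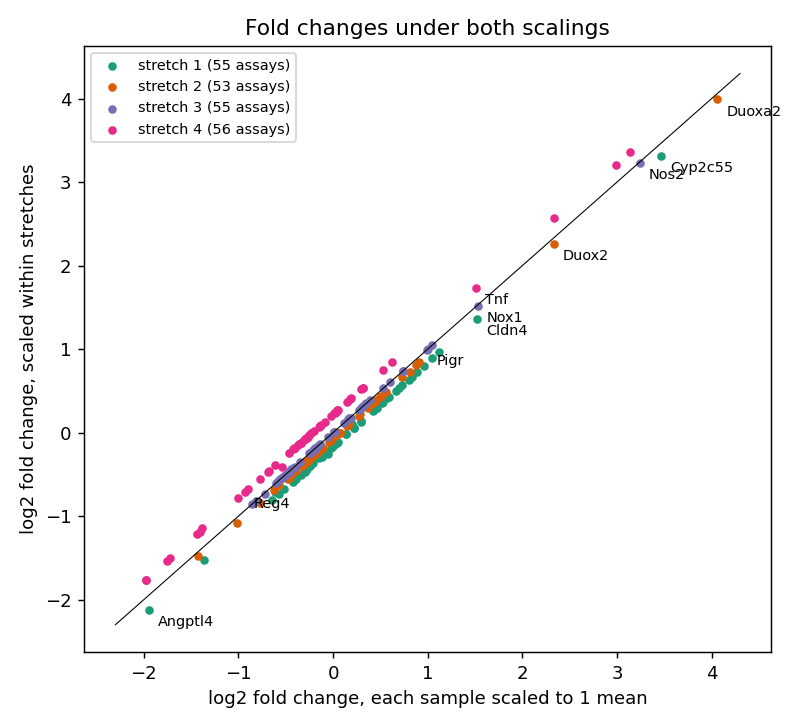
Log2 fold change of each assay with each sample scaled to 1 mean (x axis) against the same scaled within stretches (y axis), coloured by stretch, with the line of equality. The assays with the largest changes lie near the line, and calls numbered 84 and 130 under these scalings.

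Among the 37 named assays that were called, 23 were higher and 14 lower, and the largest rise was in the epithelial oxidase system. Duoxa2 (Mm00470560_m1) encodes the maturation factor that brings the oxidase DUOX2 to the cell surface. Its log2 relative level was -3.26, -2.62 and -2.25 (lowest, median, highest) in germfree and 0.66, 1.55 and 1.83 in conventional samples. All 9 conventional samples lay above all germfree samples. The log2 fold change was 4.06 ± 0.17 (SE, as for all such values; limma, adjusted p = 1.66e-13), a 16.7-fold rise. Duox2 (Mm01326247_m1), the hydrogen peroxide-producing oxidase itself, was at -0.78, -0.52 and -0.10 in germfree and 1.33, 1.89 and 2.22 in conventional samples. The groups did not overlap here either, and the rise was 2.33 ± 0.14 (adjusted p = 6.69e-11), 5.02-fold. Nox1 (Mm00549170_m1), a superoxide-producing NADPH oxidase, was at -4.43, -3.91 and -3.25 against -2.89, -2.27 and -1.85. Its groups were also apart, with a rise of 1.53 ± 0.17 (adjusted p = 7.19e-07), 2.88-fold.

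The oxidase and antioxidant list had 6 tested members, of which 4 rose and 1 fell, beside 16.4% higher and 21.9% lower over all assays. Its median log2 fold change was 0.97, beside -0.14 over all tested assays. Gpx2, an epithelial glutathione peroxidase, was higher by 0.42 ± 0.16 (limma, adjusted p = 0.0461), and Sod2, the mitochondrial superoxide dismutase, lower at -0.31 ± 0.11 (adjusted p = 0.0309). Neither was called within stretches, where Gpx2 had an adjusted p of 0.062 and Sod2 of 0.251. The call of Gpx2 was also lost without any 1 of germfree replicates 10, 11, 20, 22, 30, 31 and 32 and conventional replicates 1, 2, 3, 4, 7 and 10 (adjusted p 0.0529 to 0.091), and that of Sod2 without germfree replicate 12 or 22 or conventional replicate 4 or 9 (0.0546 to 0.0574). Cat, catalase, did not pass at -0.28 ± 0.22 (adjusted p = 0.318), but was called lower within stretches at -0.44 ± 0.07 (adjusted p = 4.13e-05). Within the conventional group, Duox2 against Duoxa2 across the 9 samples gave r = 0.70 and rho = 0.58 (permutation p = 0.034 and 0.108). Adjusted over 8 relations, the p of r was 0.0673, not below 0.05. The r was 0.40 without the 2 samples farthest from the median of Duox2. In germfree samples r was 0.57 and rho 0.57 (permutation p = 0.113 and 0.121), and r was 0.21 without the 2 farthest samples. Both assays lie in stretch 2. Within stretches r was 0.61 in conventional and 0.62 in germfree samples (permutation p = 0.083 and 0.0758, both adjusted 0.0949).

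Antimicrobial genes also showed large rises, among them Nos2, Reg3g and Reg3b. The last pair encode secreted C-type lectins of the intestinal epithelium that act on bacteria near the mucosal surface. Their upstream sequences are shown because both of these paralogs were higher in conventional samples. The windows are the 250 bases before each start from RefSeq (GRCm38.p6), read 5′ to 3′ on the gene's strand, at chr6:78370635-78370884 (plus) for Reg3b and chr6:78468875-78469124 (minus) for Reg3g.
Reg3b: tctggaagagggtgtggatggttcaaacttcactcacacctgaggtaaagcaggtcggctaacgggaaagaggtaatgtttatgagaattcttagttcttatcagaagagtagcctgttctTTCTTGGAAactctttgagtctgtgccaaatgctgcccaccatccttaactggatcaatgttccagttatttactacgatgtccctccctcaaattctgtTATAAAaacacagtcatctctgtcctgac
Reg3g: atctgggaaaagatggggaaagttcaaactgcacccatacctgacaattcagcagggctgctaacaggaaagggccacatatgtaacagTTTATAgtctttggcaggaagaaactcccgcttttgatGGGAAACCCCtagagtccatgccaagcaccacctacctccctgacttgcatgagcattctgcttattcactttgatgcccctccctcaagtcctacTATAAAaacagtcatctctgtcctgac
Capitals mark the letters TATAAA on either strand in both, TTCNNNGAA in Reg3b and a kappa B consensus in Reg3g. Counting back from -1, the base before the start, TATAAA lay at -29 to -24 in Reg3b and at -27 to -22 in Reg3g, with a copy on the other strand at -161 to -156 in Reg3g. The TTCNNNGAA match lay at -129 to -121 and the kappa B match at -123 to -114. Of 32851 windows of this length, 12.4% held TATAAA, 7.02% TTCNNNGAA and 7.25% the kappa B consensus, so each is a match of letters only. The windows were 70% identical over 247 aligned columns, and their longest shared run was the last 20 bases before the start. Whether each assay reads only its own paralog was not tested.

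Reg3g (Mm00441127_m1) was at 4.48, 4.79 and 5.37 in germfree and 6.58, 8.28 and 9.00 in conventional samples. Reg3b (Mm00440616_g1) was at 3.70, 4.04 and 5.18 against 5.63, 7.56 and 8.11. For both, every conventional sample was above every germfree sample. Reg3g rose by 3.14 ± 0.27 log2 units (limma, adjusted p = 1.6e-08), 8.81-fold, and Reg3b by 2.99 ± 0.30 (adjusted p = 1.08e-07), 7.95-fold. The levels were more spread in conventional samples, and there the 2 genes ran together: r = 0.98 and rho = 0.97 over 9 samples (permutation p = 4.68e-05 and 0.000165, r adjusted over 8 relations 0.000375). Without the 2 samples farthest from the median of Reg3b, r was 0.93. Both assays lie in stretch 4, and within stretches r was 0.97. In germfree samples r was 0.67 and rho 0.45 (permutation p = 0.0421 and 0.23, r adjusted 0.0673). There r was -0.26 without the 2 farthest samples.

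Nos2 (Mm00440502_m1), the inducible nitric oxide synthase, was at -3.12, -1.50 and -0.63 in germfree and 1.11, 1.63 and 2.51 in conventional samples. These ranges did not overlap, and the rise was 3.24 ± 0.26 (limma, adjusted p = 7.31e-09), 9.42-fold. Retnlb (Mm00445845_m1), a goblet cell protein active against bacteria, amplified in 7 of 9 germfree and 9 of 9 conventional samples. It was at -9.47, -6.40 and -5.64 against -6.83, -3.88 and -3.45, so the groups overlapped, and the rise was 2.33 ± 0.59 (adjusted p = 0.006), 5.04-fold over measured wells. Pla2g2a, a secreted phospholipase that attacks bacterial membranes, rose by 0.74 ± 0.20 (adjusted p = 0.00843). Reg4 (Mm00471115_m1), a further Reg family lectin, went the other way. It was at 1.74, 2.28 and 2.77 in germfree and 1.05, 1.33 and 1.65 in conventional samples, every one of which was below all germfree samples. The log2 fold change was -0.93 ± 0.14 (adjusted p = 5.17e-05). The list had 10 tested members, 5 higher and 1 lower, beside 16.4% and 21.9% over all assays, and its median was 0.53, beside -0.14. Lyz1, Lyz2, Lcn2 and S100a9 did not pass, with log2 fold changes of 0.32, -0.24, -0.51 and -0.54. Within stretches Lyz1, the Paneth cell lysozyme, was called higher (adjusted p = 0.0301) and Lcn2, which binds bacterial siderophores, lower (adjusted p = 0.0089).

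**Figure D4:**
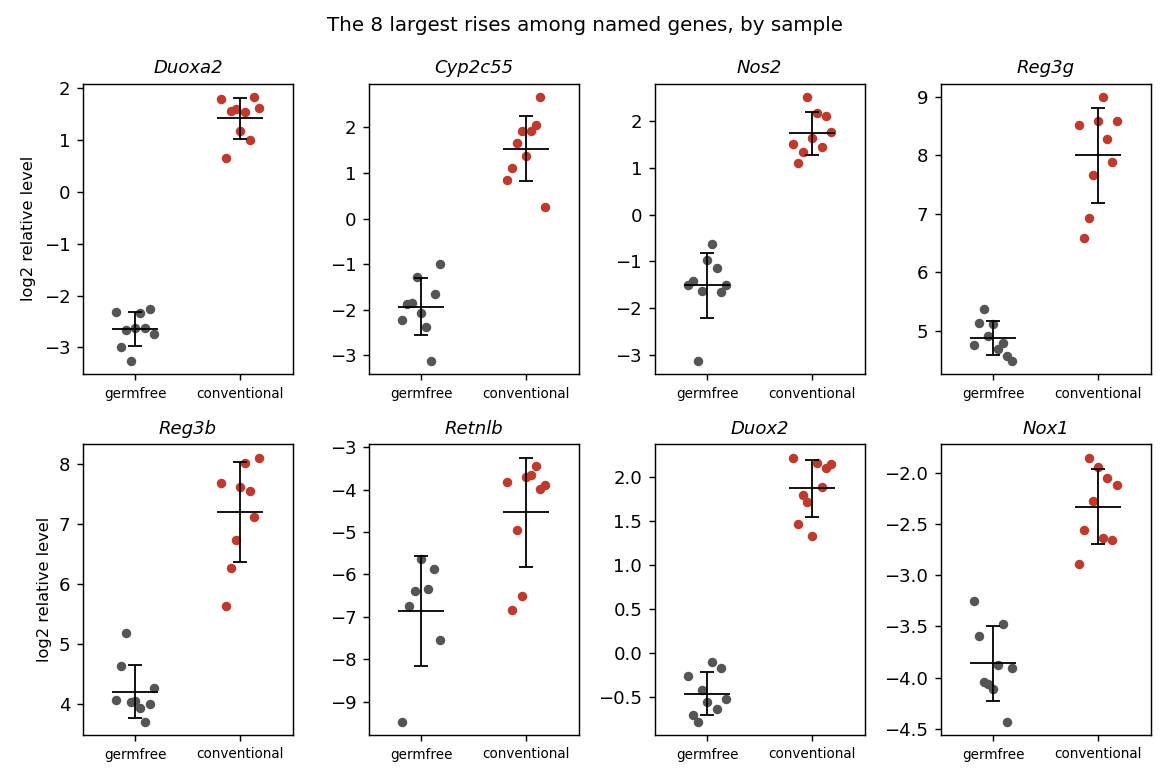
Log2 relative level (y axis) of the named genes with the largest rises in each germfree and conventional sample (points, 9 samples a group unless not amplified), with the group mean and SD as bars. Duoxa2, Duox2, Nox1, Reg3g, Reg3b, Nos2 and Cyp2c55 show no overlap, and Retnlb does.

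Both named P450 genes rose, and 1 of the 2 tested members of the lipid metabolism list fell, beside 16.4% higher and 21.9% lower over all assays. Cyp2c55 (Mm00472168_m1), a cytochrome P450 that oxidises fatty acids and drugs, was at -3.12, -1.87 and -0.99 in germfree and 0.26, 1.66 and 2.67 in conventional samples. The groups did not overlap, and the rise was 3.47 ± 0.30 (limma, adjusted p = 1.6e-08), 11.1-fold. Cyp3a13, another P450, rose by 0.51 ± 0.16 (adjusted p = 0.0175), but with the median Ct of each stretch it was 0.15 (adjusted p = 0.35). Angptl4 (Mm00480431_m1), a secreted inhibitor of lipoprotein lipase, was at -1.57, -0.24 and 0.64 in germfree and -2.57, -2.11 and -1.46 in conventional samples. Of the 9 conventional samples, 8 lay below all germfree samples. The log2 fold change was -1.95 ± 0.26 (adjusted p = 6.95e-06), with germfree 3.88-fold higher. Pparg, a nuclear receptor of lipid metabolism, did not pass at -0.43 ± 0.63 (adjusted p = 0.613). Insig1, a named gene that was not on the list, did not pass at -0.31 ± 0.15 (adjusted p = 0.103). Within stretches Insig1 was called lower, at -0.38 ± 0.13 (adjusted p = 0.0168).

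Of 8 tested cytokines, 3 were higher and none lower, beside 16.4% higher and 21.9% lower over all assays, and the list median was 0.41. Scaled within stretches, 3 were higher and 1, Ifng, was lower. Tnf (Mm00443258_m1), a central inflammatory cytokine, was at -7.04, -5.75 and -4.34 in germfree and -4.99, -4.23 and -2.95 in conventional samples. The ranges overlapped, with 6 conventional samples above all germfree samples, and the rise was 1.51 ± 0.37 (limma, adjusted p = 0.00388), 2.86-fold. Il18, an epithelial cytokine of the interleukin-1 family, rose by 0.56 ± 0.17 (adjusted p = 0.0175), and was 0.20 with the median Ct of each stretch (adjusted p = 0.228). Il12b, a subunit shared by interleukins 12 and 23, rose by 0.81 ± 0.28 (adjusted p = 0.0359), but over only 6 germfree and 7 conventional wells near the end of the measured range, with a median Ct of 30.2 in germfree samples. Its call was lost without any 1 of germfree replicates 11, 12, 30 and 33 and conventional replicates 3, 7 and 8 (adjusted p 0.063 to 0.0789). Ifng, interferon gamma, amplified in 5 samples of each group and was not called at -1.43 ± 0.53 (adjusted p = 0.0504). Within stretches it was called lower, at -1.48 ± 0.56 (adjusted p = 0.0423). Il1b, Il12a, Il23a and Il33 did not pass, at 0.27, 0.73, -0.48 and -0.04. Il10, Il22 and Il6 amplified too rarely to be fitted. Il10 gave a Ct in 3 germfree and 8 conventional samples (Fisher's exact test, two-sided, p = 0.0498, adjusted p = 0.249), Il22 in 1 and 5 (adjusted p = 0.328), and Il6 in 2 and 3 (adjusted p = 1).

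Of 6 named interleukin receptor chains, 3 were higher, and 1 of 3 named chemokines was, beside 16.4% higher and 21.9% lower over all assays. These receptors were grouped after their values were seen. Il2rb, the beta chain shared by the interleukin 2 and 15 receptors, rose by 0.91 ± 0.20 (limma, adjusted p = 0.00145). Il4ra, the interleukin 4 receptor chain, changed less, by 0.44 ± 0.09 (adjusted p = 0.000841), without overlap under this scaling: -0.46, -0.20 and -0.01 in germfree against 0.03, 0.21 and 0.37. With the median Ct of each stretch it was 0.07 (adjusted p = 0.379), and scaled to the assays measured in all 36 samples the groups overlapped, with germfree up to 0.11 and conventional down to -0.02. Il2rg, the common gamma chain, was higher by 0.45 ± 0.18 (adjusted p = 0.0483), and was not called within stretches (adjusted p = 0.053). Nor was it called without any 1 of germfree replicates 11, 12, 20, 22 and 31 and conventional replicates 1, 3, 4, 6, 7, 9 and 10 (adjusted p 0.0514 to 0.0955). Il10ra and Il17ra did not pass under either scaling, at -0.15 and 0.05 in the main one. Il6ra did not pass at -0.29 ± 0.11 (adjusted p = 0.0538) and was called lower within stretches, at -0.35 ± 0.10 (adjusted p = 0.00775). Cxcl10, which attracts activated T cells, rose by 1.05 ± 0.36 (adjusted p = 0.0295), while Ccl3 and Ccl25 did not pass at 0.53 and -0.01. Within stretches Ccl25 was called lower, at -0.17 ± 0.06 (adjusted p = 0.018), once the stretch 1 difference of 0.16 was taken out. The call of Cxcl10 was lost without germfree replicate 11, or without conventional replicate 1, 4 or 9 (adjusted p 0.052 to 0.0565). The share of immune cells in the samples was not tested. Jun (Mm00495062_s1), a subunit of the transcription factor AP-1, rose by 1.05 ± 0.16 (adjusted p = 3.51e-05), with no overlap: 0.33, 0.84 and 1.38 against 1.48, 1.87 and 2.40. Fos and Egr1, early response genes like it, did not pass at 0.37 and -0.03.

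Pigr (Mm00465049_m1), the epithelial receptor that carries IgA into the lumen, was at 3.66, 4.29 and 4.77 in germfree and 4.74, 5.24 and 5.48 in conventional samples. Only the edges of the groups overlapped, with 8 conventional samples above all germfree samples. The rise was 1.0 ± 0.17 (limma, adjusted p = 0.000108), a doubling, and under quantile normalization it was 0.45 (adjusted p = 0.0823). Of 6 tested mucus genes only Muc13, a membrane mucin, was called, higher by 0.74 ± 0.23 (adjusted p = 0.018). That share is near the 16.4% higher over all assays, and the list median was -0.04, beside -0.14. Muc2, the main secreted mucin, and Tff3, a goblet cell trefoil peptide, differed by 0.02 ± 0.17 and -0.09 ± 0.14 (adjusted p = 0.957 and 0.633). Tff2, measured in 6 samples of each group, did not pass at -1.39 ± 0.59 (adjusted p = 0.0747), nor did Muc1 and Muc4, at -0.54 and 0.29. Fut2, which fucosylates epithelial glycans, rose by 0.88 ± 0.30 (adjusted p = 0.0304) over 8 germfree and 9 conventional samples, and lost its call without any 1 of germfree replicates 11, 30 and 32 and conventional replicates 1 and 9 (adjusted p 0.0506 to 0.0578).

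Of 9 junction and adhesion genes, 1 rose and 2 fell, shares near the 16.4% and 21.9% over all assays. The list median of -0.12 was also near the -0.14 of all assays. Cldn4 (Mm00515514_s1), a claudin that tightens the paracellular path, was at -1.12, 0.44 and 0.99 in germfree and 0.87, 1.53 and 2.33 in conventional samples. Here 8 conventional samples lay above all germfree samples, and the rise was 1.52 ± 0.26 (limma, adjusted p = 0.000169), 2.88-fold. Ocln, the tight junction protein occludin, was lower at -0.53 ± 0.16 (adjusted p = 0.0138), and Tjp1, the junction scaffold ZO-1, at -0.41 ± 0.12 (adjusted p = 0.014). The fall of Tjp1 and Ocln was not called with raw Ct (adjusted p = 0.107 for Tjp1 and 0.0736 for Ocln), with the 20 steadiest assays or with the 4 reference genes. Within stretches Cldn3 and Cldn8 were called lower too (adjusted p = 0.00838 and 0.00189). Both lie in stretch 1, and in the main scaling they were at -0.07 and -0.52. Cldn2, Cldn7 and Cdh1 were called under neither scaling.

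Of 7 tested pattern recognition genes none rose and 2 fell, beside 16.4% higher and 21.9% lower over all assays. Tlr5 (Mm00546288_s1), the receptor for flagellin, was at -3.04, -2.48 and -1.17 in germfree and -3.51, -3.14 and -2.53 in conventional samples. The ranges overlapped, with 6 conventional samples below all germfree samples, and the log2 fold change was -0.77 ± 0.20 (limma, adjusted p = 0.00629). Nlrp6, an inflammasome sensor of the epithelium, was lower at -0.44 ± 0.17 (adjusted p = 0.0487), close to the threshold. Its call was lost with raw Ct (adjusted p = 0.221) and without any 1 of germfree replicates 10, 11, 12, 22, 30 and 31 and conventional replicates 1, 2, 3, 4, 6 and 9 (0.0575 to 0.0952). Within stretches it was -0.44 ± 0.10 (adjusted p = 0.00126). Tlr4, Tlr9, Nod2 and Myd88 did not pass under either scaling, and Nod1 was called lower only within stretches (adjusted p = 0.00719). Stat6, which carries interleukin 4 signals, was lower at -0.42 ± 0.14 (adjusted p = 0.0242), while its receptor chain Il4ra was higher. With raw Ct, Stat6 was not called (adjusted p = 0.154).

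Of 7 proliferation and cell death genes, 4 fell and none rose, beside 21.9% lower and 16.4% higher over all assays. The list median was -0.54, beside -0.14. Mki67 (Mm01278617_m1), a marker of cycling cells, was at 1.50, 2.13 and 2.82 in germfree and 1.03, 1.52 and 1.83 in conventional samples. Pcna (Mm00448100_g1), the DNA replication clamp, was at 1.37, 1.97 and 2.55 against 0.99, 1.32 and 1.60. Trp53 (Mm01731290_g1), the tumour suppressor p53, was at 0.05, 0.61 and 1.0 against -0.61, -0.09 and 0.37. For each the conventional samples lay low but the groups overlapped. The log2 fold changes were -0.60 ± 0.16 for Mki67 (limma, adjusted p = 0.00626), -0.58 ± 0.15 for Pcna (adjusted p = 0.00492) and -0.61 ± 0.14 for Trp53 (adjusted p = 0.00251). Lgr5 (Mm00438890_m1), a marker of crypt stem cells, was at -1.70, -0.96 and -0.41 in germfree and -2.19, -1.52 and -1.14 in conventional samples. It fell by 0.54 on the log2 scale (SE 0.15, adjusted p = 0.0118). With the 4 reference genes as the scale, Mki67, Pcna and Lgr5 lost their call (adjusted p = 0.0585, 0.0564 and 0.0984). Lgr5 also lost it with quantile normalization (-0.41, adjusted p = 0.0524) and with the 20 steadiest assays (-0.39, adjusted p = 0.0558). Ccna2, Ccne1 and Cdk4, cell cycle drivers that were not on the list, did not pass at -0.41, -0.39 and -0.29, and were called lower within stretches (adjusted p = 0.000563, 0.00479 and 0.00125). Ccnd1, Myc and Egfr were called under neither scaling.

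Sox2 (Mm03053810_s1), a transcription factor of stem and neural cells, amplified late, with a median Ct of 26.5 in germfree and 27.1 in conventional samples. Its level was -6.39, -5.13 and -3.33 against -7.98, -5.76 and -5.22, with wide overlap, and the log2 fold change was -1.44 ± 0.45 (limma, adjusted p = 0.018). The call was lost when Ct above 28 was treated as missing (log2 fold change -0.62, adjusted p = 0.262). Of the 4 reference genes, Tbp was lower at -0.37 ± 0.12 (adjusted p = 0.023) but not within stretches (adjusted p = 0.107) or with raw Ct (adjusted p = 0.191). Actb, Gapdh and Gusb differed by 0.22 ± 0.26, -0.33 ± 0.16 and 0.02 ± 0.10 (adjusted p = 0.518, 0.103 and 0.887). Within stretches Gapdh was called lower, at -0.40 ± 0.15 (adjusted p = 0.0316).

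**Figure D5:**
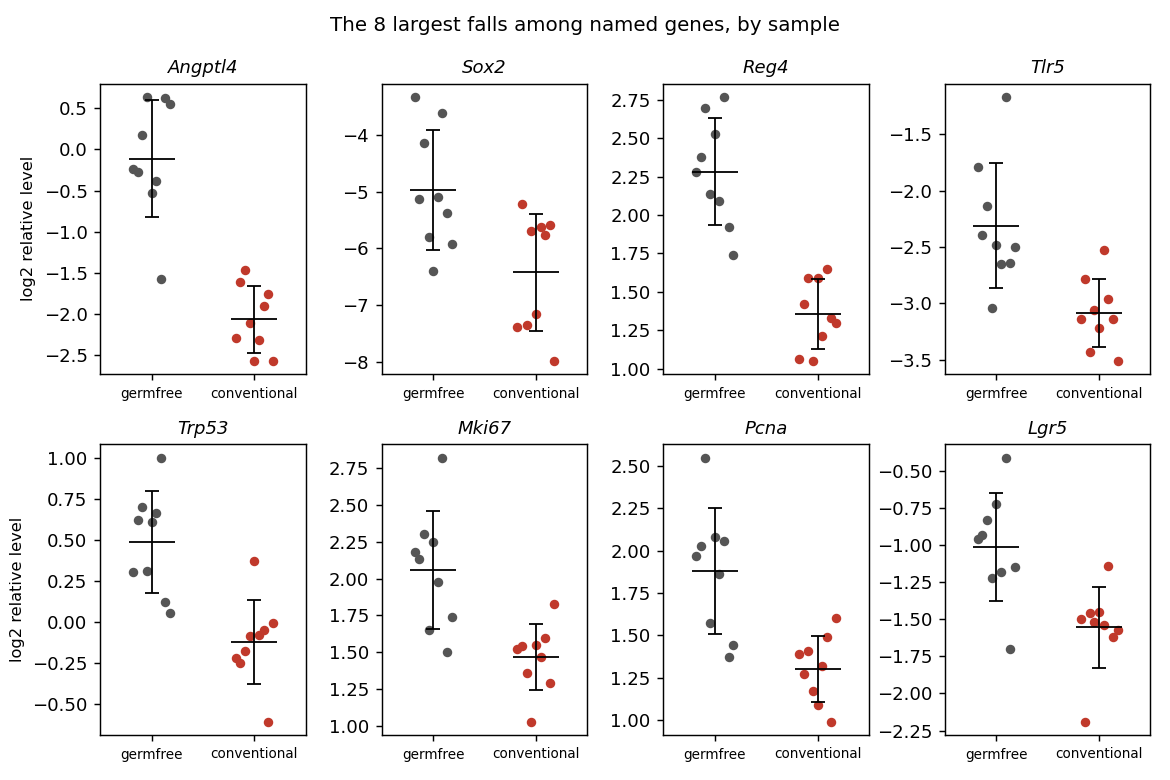
Log2 relative level (y axis) of the named genes with the largest falls in each germfree and conventional sample (points, 9 a group), with the group mean and SD as bars. Only Reg4 shows no overlap, and Angptl4 has 8 conventional samples below all germfree samples.

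Unnamed assays made up 13 of the 36 rises and 34 of the 48 falls. The largest unnamed rises were Mm04204476_m1 at 1.12 ± 0.28 (limma, adjusted p = 0.00492) and Mm00600522_m1 at 0.99 ± 0.18 (adjusted p = 0.000263). Under the main scaling the largest falls of the panel were both unnamed, while within stretches Angptl4 fell most, at -2.12, and both of these were at -1.76. Mm01213380_s1 was at -4.82, -3.61 and -2.21 in germfree and -9.41, -5.06 and -3.64 in conventional samples, a change of -1.98 ± 0.60 (adjusted p = 0.0166). Mm00489956_g1 was at 0.39, 0.72 and 1.32 against -1.75, -1.38 and -0.34. The latter showed no overlap, and its change was -1.98 ± 0.19 (adjusted p = 5.9e-08), with germfree 3.94-fold higher.

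The mono-associated samples share the germfree controls, so their levels are given side by side without a test, scaled to the 146 assays measured in all 36 samples. CEC replicate 7 and Nissle replicate 6 stand apart from their groups, and the medians without them follow in the same order. The median of Cyp2c55 was -2.01 in germfree, 1.64 in conventional, -2.59 in CEC and -2.71 in Nissle samples, and -2.66 and -2.71 without those samples. The highest mono-associated sample was at -1.01, below the lowest conventional sample at 0.17. The median of Nos2 was -1.54, 1.54, -1.0 and -0.43, and -0.88 and -0.53 without them. For Reg3g the medians were 4.70, 8.23, 5.76 and 5.19, and 5.89 and 5.40 without them. No mono-associated sample reached the lowest conventional sample for Nos2 or Reg3g. Duoxa2 differed from these in its spread. Its medians were -2.74, 1.52, -1.36 and -0.29, and 0.02 and -0.49 without them. With all samples, CEC ran from -2.23 to 3.22 and Nissle from -2.65 to 3.84, so some of their samples passed the highest conventional sample at 1.97. Angptl4 had medians of -0.30, -2.04, -0.01 and -0.55, and 0.05 and -0.55 without them.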

How the data were processed

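Real-time PCR of 224 TaqMan assays was run on OpenArray cards with mirVana-isolated total RNA of average integrity number above 9, per the labels' protocols. The authors deposited raw Ct values with no normalization, per the file headers. The sources used here do not give the amplification efficiency. A Ct of 40 was treated as missing, and fold changes assume a doubling each cycle.

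Columns were matched to samples by title. Levels were scaled to a sample's mean Ct over the 206 assays that all 18 samples measured. limma 3.58.1 in R 4.3.3 (lmFit, eBayes) was fitted to the 18 samples with Benjamini-Hochberg adjustment over 219 assays, two-sided. Permutation tests used scipy 1.17.1, and their smallest p for 9 against 9 samples is 4.11e-05. On simulated data with 219 assays, 48.8% of changes of 0.5, 88% of changes of 1 and 99% of changes of 2 log2 units were recovered, and 3.73% of calls were false. Those data were independent between assays. The median 95% confidence interval reached 0.39 log2 units either side, or 0.25 scaled within stretches. No assay had an equal Ct in any 2 samples.

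None of the 224 IDs is in the RefSeq table at hand. The 97 names are recalled catalogue assignments, written with the table's alphabetical order in view and, for a few IDs, with earlier values known. All 97 symbols exist in RefSeq, and 96 of 96 neighbouring named pairs are in alphabetical order, which is no independent check. The genes compared, the lists and the choice of fitting 18 samples were made with earlier results of these data known. Every named assay past the threshold is given, with lowest, median and highest level for the 8 largest changes each way and some others, which were picked after their values were seen, and the 2 largest unnamed changes each way.

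Alternatives covered scaling, undetermined wells, high Ct, filters, samples in the fit, the variance model, a permutation test and each sample left out. The scalings within stretches and to 4 reference genes were chosen after seeing the data. A few of the tested assays are not reported here by name.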

Additional observations from a re-analysis of the deposited data

Results flagged for a closer look

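A sample lay far from the other 8 of its group in 5 of 82 sets of values tested, and chance flags about 1 in 20. Cxcl10 in germfree replicate 11 was at a log2 relative level of -6.52, with the others between -5.04 and -4.43. Nos2 in germfree replicate 12 was at -3.12, with the others between -1.65 and -0.63. Cyp3a13 was at 0.68 in germfree replicate 31, below the others at 1.50 to 2.12, and at 1.67 in conventional replicate 3, below the others at 2.04 to 2.42. Lgr5 in conventional replicate 2 was at -2.19, with the others between -1.62 and -1.14. Scaled within stretches, 2 of the 5 still stood apart, Nos2 in germfree replicate 12 and Cyp3a13 in conventional replicate 3.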

How the results depend on the processing

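The count of 84 assays lay between 56 and 98 under the other scalings over the whole panel, filters, fits and tests with all 18 samples, and between 70 and 93 with each of them left out in turn. It rose to 130 when scaled within stretches, to 127 with the median Ct of each stretch and to 130 within stretches with sample quality weights, and within stretches it ran from 117 to 128 with 1 sample left out. The 41 results followed were the 37 named assays that were called and the 2 largest unnamed changes each way. Of the 41, 18 kept call and direction under all 54 alternatives, among them all the unnamed ones, and 23 lost their call under at least 1. Named genes that kept it include Duoxa2, Duox2, Nox1, Nos2, Reg3b, Reg3g, Cyp2c55, Cldn4, Tnf, Angptl4 and Trp53. Only Sod2 reversed, to 0.01 with the median Ct of each stretch. The cause was not tested. In the fit on all 36 samples, Fut2, Gpx2, Il2rg, Sod2, Sox2 and Retnlb lost their call (limma, adjusted p 0.116 to 0.359). Nlrp6, Reg4, Pla2g2a, Il18 and Tlr5 lost theirs there too, nearer the threshold (adjusted p 0.0583 to 0.0803). Fut2, Gpx2, Il2rg, Sox2 and Retnlb were not called either once the mono-associated samples that stand apart were dropped (adjusted p 0.0642 to 0.198). With the median Ct of each stretch, calls were also lost for Fut2, Il12b, Sox2, Stat6, Tjp1 and Tlr5 (0.51, 0.43, -1.12, -0.10, -0.09 and -0.45). Il12b rests on wells near a Ct of 30. No paired analysis was made, because nothing in the sample titles pairs a conventional with a germfree sample.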
